A study of Homo sapiens with 8 samples.

Results

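The genes described here encode enzymes and transporters that take glucose to pyruvate and lactate, convert pyruvate inside the mitochondrion and turn the citric acid cycle. All 45 listed genes were found by an exact match of their symbol in the annotation of the deposited workbook, out of 20307 genes with a single symbol, and they are covered by 111 of 54613 probe sets. A gene with several probe sets was represented by the brightest of them, judged by the mean of all 8 arrays. RNA came from CEM, an established line of human T-cell acute lymphoblastic leukaemia. CEM cells carried a transfected shRNA directed at ZMIZ1, which encodes a PIAS-like transcriptional coactivator, in 4 replicates, and a scrambled shRNA in the 4 control replicates. The replicates are described as biological and as not paired between conditions. Total RNA was hybridized to Affymetrix HG_U133_plus_2 arrays, and every value below is an RMA log2 value or a difference of such values, knockdown minus control.

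Glycolysis splits glucose into pyruvate in the cytosol, and hexokinase and phosphofructokinase are among its controlled steps. Pyruvate is either reduced to lactate by lactate dehydrogenase or converted to acetyl-CoA by the pyruvate dehydrogenase complex, which pyruvate dehydrogenase kinases switch off by phosphorylation. Acetyl-CoA is then oxidized in the citric acid cycle. Proliferating leukaemic T cells are known for high glucose use, and MYC and the hypoxia-inducible factors are known regulators of many of these genes.

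The target of the shRNA was lower on every knockdown array on its brightest probe set. ZMIZ1 averaged 9.95 ± 0.14 on knockdown arrays and 11.16 ± 0.06 on control arrays (SD, n = 4 each; exact two-sided permutation p = 0.0286, the smallest that 70 assignments allow). The remaining ZMIZ1 probe sets had low means of 5.33 and 5.21. They differed by -0.10 and -0.07, with overlap between groups, and did not pass. The labels name no second shRNA and no rescue, so an action of the shRNA on other transcripts and the loss of ZMIZ1 cannot be told apart. In bulk RNA, a lower value from fewer cells of one kind and from less RNA per cell cannot be told apart either. Of the T lineage markers CD3E, CD3D, CD7, CD5, CD1A, CD4 and LCK, 6 of 7 had a mean of at least 6, a level below which a probe set is called dim here. Single T lineage markers moved with the groups. CD3E, part of the CD3 signalling unit of the T cell receptor, averaged 8.41 ± 0.26 in knockdown and 7.36 ± 0.11 in control (SD, n = 4 each) and rose by 1.06 (adjusted p = 0.000586), and CD1A, a cortical thymocyte antigen, averaged 6.77 ± 0.11 in knockdown and 7.69 ± 0.10 in control and fell by 0.93 (adjusted p = 0.000200). The other 5 did not pass, and the part of these changes in the results below was not tested. The same level was reached by 0 of 3 myeloid, 0 of 3 erythroid, 1 of 3 B cell and 1 of 3 stromal markers. Control probe sets for 18S ribosomal RNA separated the groups, with array means from 9.85 to 12.12 in knockdown and from 12.70 to 13.37 in control (exact permutation p = 0.0286).

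Among the 45 genes, 4 rose, 11 fell and 30 did not pass the test, which was limma with Benjamini-Hochberg adjustment over all genes and a threshold of 0.05. The genes that rose were PFKL, PFKP, PDK2 and IDH3G. Those that fell were HK2, PFKM, PFKFB3, ALDOC, PDK1, PDK3, PDHA1, IDH3A, SUCLG1, SUCLG2 and ME2. Over all genes 20.0% were called, 13.5% as risen and 6.50% as fallen. Called members made up 33.3% of the list. Among the 42 members that were not dim the share was 35.7%, beside 31.1% of all genes with a mean of at least 6. These genes were dimmer as a group than the members, with members at a median level of 10.91 and these genes at 8.997, so the shares are not matched for brightness. The split was 4 risen to 11 fallen in the list and 2733 to 1320 over all genes. A called change had a median size of 0.53. Groups did not overlap in 20 members and in 25.1% of all genes. Of these members 6 were higher in knockdown, beside 16.4% of all genes, and 14 were lower, beside 8.69% of all genes. Among genes with a mean of at least 6, 2864 of 11097 were higher without overlap and 1296 were lower. The 42 members that were not dim had 6 higher and 13 lower.

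With the 18S signal as a covariate, 0 of the 15 calls held in limma, and 0.458% of all genes were called in that fit. The differences of 14 of the 15 kept their sign there, with IDH3G at -0.0027 as the exception. Among the 15 genes, the lowest adjusted p values in that fit were 0.0603 for HK2 and 0.0648 for SUCLG1, with differences of -0.67 and -0.73. Because 18S signal and group nearly coincide, the part of this signal in each change cannot be told apart from the group beyond these values.

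**Figure D1:**
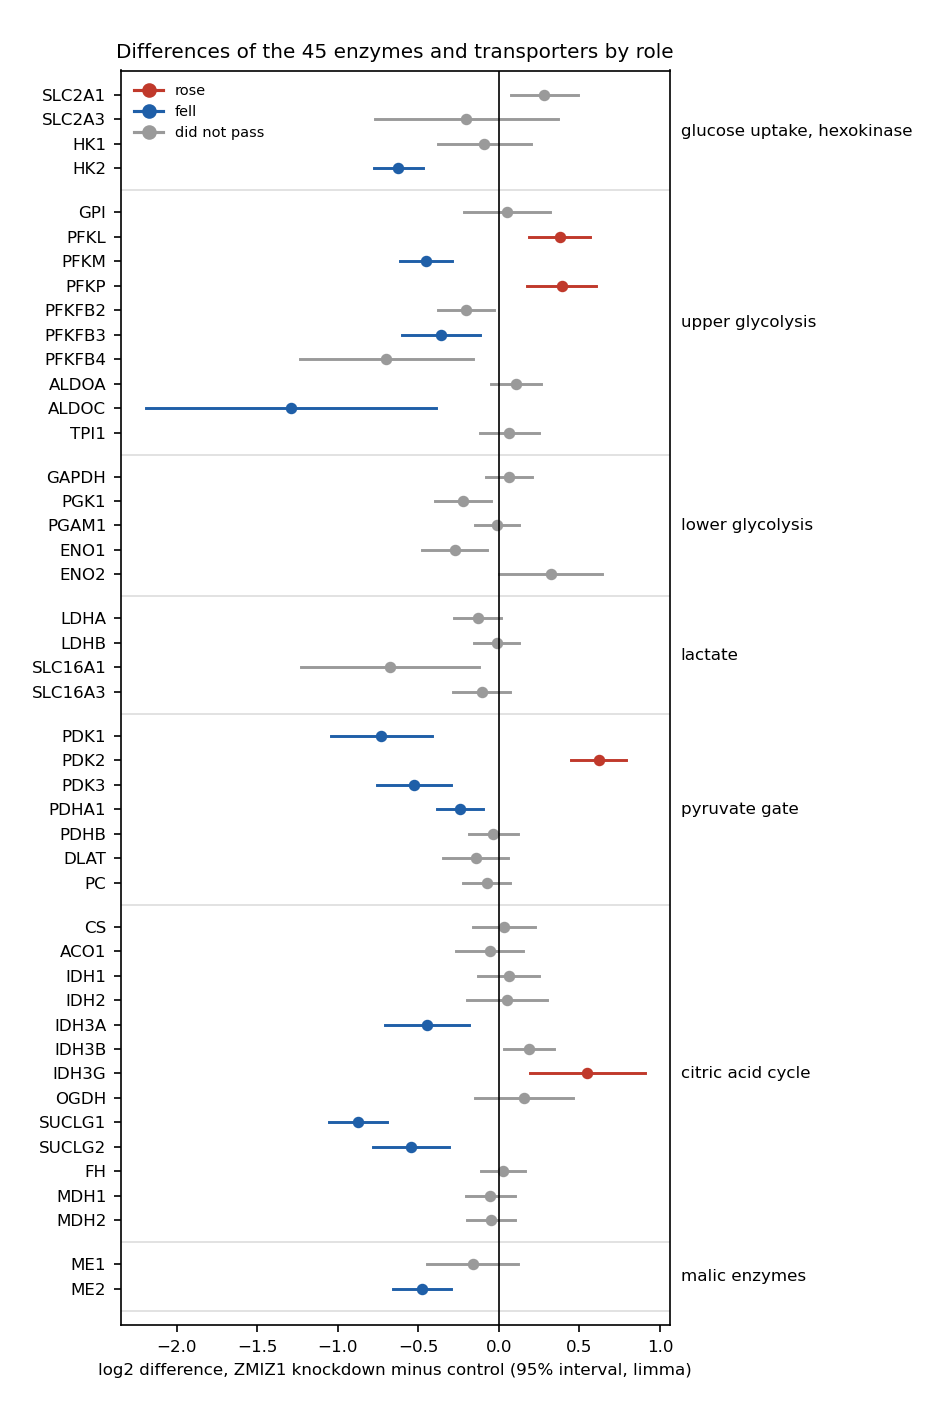
Log2 difference between ZMIZ1 knockdown and control (x axis) with its 95% interval from limma for each of the 45 genes, grouped by role down the page. Red marks the 4 genes that rose, blue the 11 that fell and grey the 30 that did not pass; ALDOC has the lowest value at -1.29 and PDK2 the highest at 0.62.

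The 3 upstream sequences printed here belong to ALDOC, which had the largest fall, and to SUCLG1 and HK2, whose falls had the smallest adjusted p values in the list. They are the 250 bases before the annotated start, from RefSeq on GRCh38.p14, written 5′ to 3′ on the gene's own strand. Capitals mark ACGTG, the core letters of hypoxia response elements, and its reverse complement CACGT. These overlap within CACGTG, the E-box letters bound by MYC and MAX. The ALDOC window lies at chr17:28576896-28577145 on the minus strand, the SUCLG1 window at chr2:84459281-84459530 on the minus strand, and the HK2 window, the more upstream of 2, at chr2:74833877-74834126 on the plus strand.
ALDOC: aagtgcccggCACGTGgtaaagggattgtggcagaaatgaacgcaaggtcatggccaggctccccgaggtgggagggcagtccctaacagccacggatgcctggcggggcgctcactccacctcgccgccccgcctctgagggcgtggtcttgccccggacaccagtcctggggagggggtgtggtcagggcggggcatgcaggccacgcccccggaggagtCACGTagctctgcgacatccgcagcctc
SUCLG1: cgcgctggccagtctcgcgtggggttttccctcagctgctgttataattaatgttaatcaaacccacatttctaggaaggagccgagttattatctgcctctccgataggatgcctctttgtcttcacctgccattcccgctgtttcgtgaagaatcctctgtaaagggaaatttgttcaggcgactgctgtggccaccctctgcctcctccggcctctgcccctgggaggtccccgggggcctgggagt
HK2: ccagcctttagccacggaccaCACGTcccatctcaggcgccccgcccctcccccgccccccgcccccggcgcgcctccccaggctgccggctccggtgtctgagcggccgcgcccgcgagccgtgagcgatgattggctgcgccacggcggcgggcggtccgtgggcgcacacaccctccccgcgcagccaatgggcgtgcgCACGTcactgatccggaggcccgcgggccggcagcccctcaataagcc

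The ALDOC window held CACGTG and a further CACGT, the printed HK2 window CACGT at 2 places but no CACGTG, and the SUCLG1 window neither motif. The other HK2 window, at chr2:74834920-74835169 on the plus strand, held CACGTG at 2 places. RefSeq windows were matched for 41 of the 45 genes, 73 windows in all. CACGTG stood in 8 of these (11.0%), against 6.34% of 35116 windows of all genes, and ACGTG or CACGT in 24 (32.9%), against 18.5%. Windows of the same gene can overlap, so they are not separate units. Counted by gene, CACGTG stood in 19.5% of the 41, against 7.73% of 27305, and ACGTG or CACGT in 51.2%, against 21.7%. The 41 genes have more windows per gene than all genes, which gives more places for a match. ACGTG or CACGT stood in 7 of 20 windows of members that fell (35.0%), in 3 of 9 of those that rose (33.3%) and in 14 of 44 of those that did not pass (31.8%). By gene these were 6 of 11 (54.5%), 3 of 4 (75.0%) and 12 of 26 (46.2%). A match is a description of the letters and not evidence of binding.

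Entry of glucose into the pathway showed a change in 1 of 4 genes, HK2. This gene encodes hexokinase 2, the inducible isozyme that phosphorylates glucose and docks on mitochondria. HK2 had log2 values of 9.55, 9.56, 9.56 and 9.67 on knockdown arrays, against 10.30, 10.17, 10.16 and 10.22 on control arrays. All knockdown values lay below all control values, and HK2 fell by 0.63 ± 0.07 (SE; adjusted p = 0.000456), to 64.8% of the control level. On a second HK2 probe set the groups differed by -0.02, short of the threshold. HK1, the constitutive hexokinase, averaged 10.85 ± 0.11 in knockdown and 10.94 ± 0.28 in control (SD, n = 4 each), a difference of -0.09 that did not pass. The interval for HK1, -0.38 to 0.20, lies above the interval for HK2, -0.78 to -0.47; the difference between these 2 changes was not tested.

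The glucose transporters did not pass. SLC2A1, the widely expressed transporter GLUT1, had values of 7.49, 7.46, 7.56 and 7.46 in knockdown and 7.43, 7.22, 7.20 and 6.98 in control. Knockdown arrays were all higher, by 0.28 ± 0.09 (SE; adjusted p = 0.0595). It passed without control replicate 1 (adjusted p = 0.0178). SLC2A3, the high-affinity transporter GLUT3, averaged 7.18 ± 0.26 in knockdown and 7.39 ± 0.61 in control (SD, n = 4 each), and its interval ran from -0.77 to 0.37.

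Phosphofructokinase, which commits the sugar to glycolysis, is built from 3 kinds of subunit, and their transcripts moved in opposite directions. PFKM, the muscle-type subunit, had values of 9.96, 10.05, 10.13 and 10.10 in knockdown and 10.60, 10.42, 10.54 and 10.49 in control. It fell by 0.45 ± 0.07 (SE; adjusted p = 0.00251) with no overlap between groups. PFKL, the liver-type subunit, had 7.97, 7.90, 8.22 and 8.11 in knockdown against 7.77, 7.69, 7.64 and 7.60 in control, a rise of 0.38 ± 0.09 (adjusted p = 0.0118). Its other probe set had a difference of 0.38 too and did not pass over all probe sets. PFKP, the platelet-type subunit, had 11.27, 11.19, 11.57 and 11.41 in knockdown against 10.89, 10.98, 10.88 and 11.12 in control and rose by 0.39 ± 0.10 (adjusted p = 0.0185). The groups of PFKP did not overlap, but its call ended without knockdown replicate 4 (adjusted p = 0.0557) or control replicate 3 (0.0607). With the 18S covariate the difference of PFKM was -0.57, that of PFKL 0.17 and that of PFKP 0.07.

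**Figure D2:**
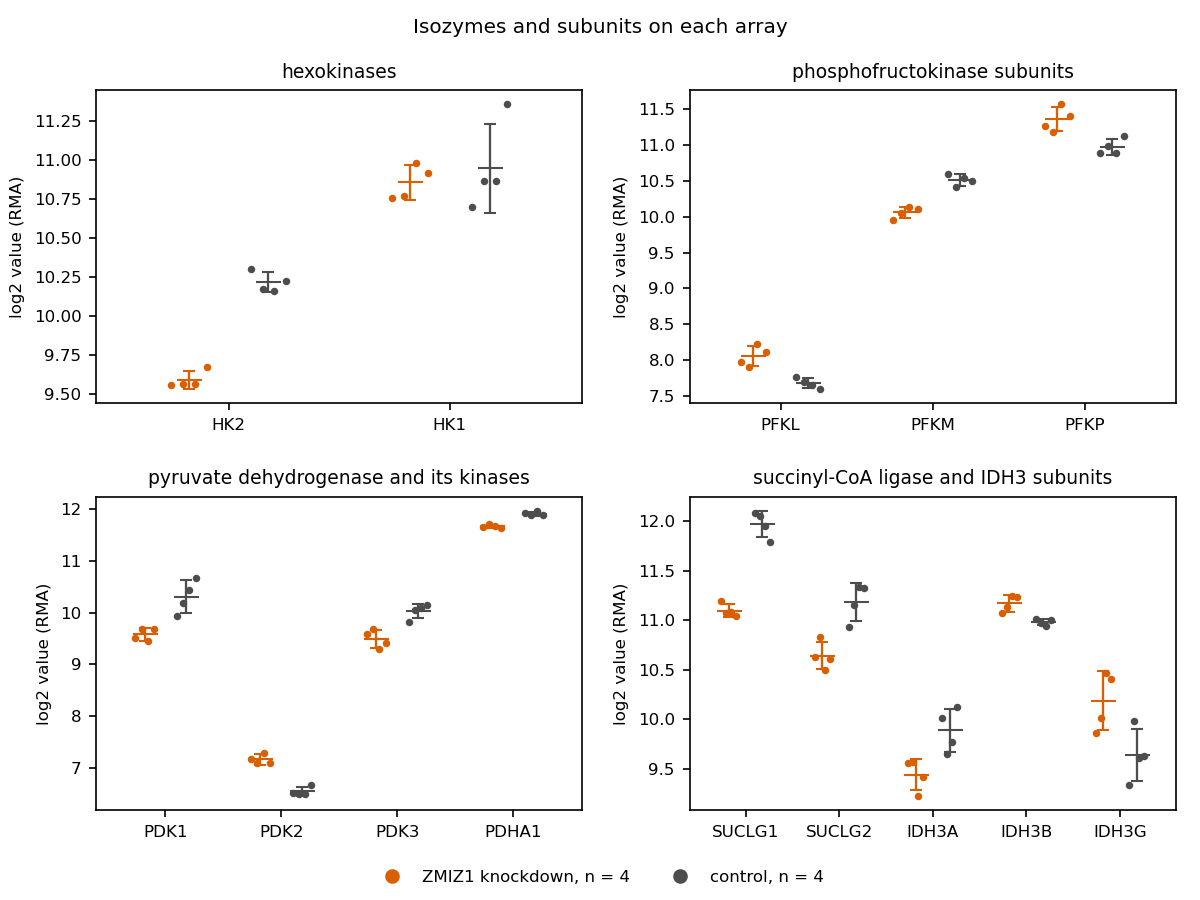
Log2 values (y axis) on each array for isozymes and subunits of 4 steps, ZMIZ1 knockdown in orange and control in grey; horizontal marks are means and bars SD over 4 arrays. HK2, PFKM, PDK1, PDK3, PDHA1, SUCLG1, SUCLG2 and IDH3A lie lower in knockdown without overlap, and PFKL, PFKP, PDK2 and IDH3B higher without overlap.

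Bifunctional enzymes of the PFKFB family set the level of the sugar bisphosphate that activates phosphofructokinase. PFKFB3, the member with the strongest kinase activity, had 8.27, 8.34, 8.30 and 8.27 in knockdown and 8.98, 8.60, 8.65 and 8.40 in control. It fell by 0.36 ± 0.11 (SE; adjusted p = 0.0407), but the call ended in 7 of the 8 fits that left out an array (adjusted p up to 0.0977), all but the one without control replicate 4 (0.0129). PFKFB4 averaged 5.43 ± 0.21 in knockdown and 6.13 ± 0.59 in control (SD, n = 4 each; difference -0.70, adjusted p = 0.0691), and the groups overlapped. It passed without control replicate 1 (adjusted p = 0.00477). For PFKFB2 the difference was -0.20, which missed the threshold (adjusted p = 0.0954). Other probe sets of these 2 genes went the other way without passing. The 3 others of PFKFB2 differed by 0.19, 0.16 and 0.02, and the other one of PFKFB4 by 0.08.

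ALDOC, the aldolase isozyme best known from brain and also induced by hypoxia, had the largest difference in the list. It had 7.57, 8.10, 8.16 and 8.47 in knockdown, against 7.92, 9.65, 9.65 and 10.24 in control. Control replicate 1 lay within the knockdown range, and the other 3 control arrays lay above it. ALDOC fell by 1.29 ± 0.41 (SE; adjusted p = 0.0474), to 40.8% of the control level. That call ended without any one array other than control replicate 1 (adjusted p from 0.0687 to 0.122), and without control replicate 1 the difference was -1.77 (adjusted p = 0.00133). In the limma fit with the replicate number as a block, the SE of ALDOC was 0.21 (adjusted p = 0.00739). By contrast ALDOA, the main aldolase of most cells, averaged 13.31 ± 0.08 in knockdown and 13.20 ± 0.05 in control (SD, n = 4 each) and did not pass (difference 0.11, interval -0.05 to 0.26). GPI and TPI1, the isomerases on either side of these steps, had differences of 0.05 and 0.06 and did not pass.

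None of the 5 genes of lower glycolysis, GAPDH, PGK1, PGAM1, ENO1 and ENO2, passed in limma on their chosen probe sets, although 3 (PGK1, ENO1 and ENO2) had an unadjusted p under 0.05. GAPDH, which oxidizes glyceraldehyde phosphate, averaged 14.52 ± 0.02 in knockdown and 14.45 ± 0.04 in control (SD, n = 4 each; interval of the difference -0.08 to 0.20). PGAM1, the mutase, had an interval of -0.15 to 0.13. PGK1, the first enzyme of the pathway to make ATP, had 13.66, 13.63, 13.60 and 13.67 in knockdown and 13.72, 13.80, 13.93 and 14.00 in control. All knockdown arrays were lower, by 0.22 ± 0.08 (SE; adjusted p = 0.0708), and all 5 other PGK1 probe sets had negative differences, of which 2 fell (-0.42 and -0.27, adjusted p = 0.0295 and 0.0400 over all probe sets, where 13.9% were called). The PGK1 probe set with -0.27 was dim, with a mean of 3.43 over all arrays.

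ENO1, the common enolase, had 13.12, 13.13, 13.04 and 13.20 in knockdown and 13.24, 13.35, 13.37 and 13.63 in control. These groups did not overlap either (difference -0.28 ± 0.09, SE; adjusted p = 0.0553). A second ENO1 probe set passed with a difference of -0.92 ± 0.19 (SE; adjusted p = 0.0113), with 12.13, 12.18, 11.49 and 12.11 in knockdown against 12.44, 13.05, 12.82 and 13.29 in control. ENO1 passed in 7 of the 20 other settings, among them that without control replicate 1 (adjusted p = 0.0351). ENO2, the neuronal-type enolase, averaged 9.42 ± 0.32 in knockdown and 9.09 ± 0.14 in control (SD, n = 4 each) and did not pass (adjusted p = 0.151). Many glycolytic genes have processed pseudogenes, and their _x_at and _s_at probe sets may also pick up such copies; whether they did was not tested.

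Of the 4 genes for lactate, LDHA, LDHB, SLC16A1 and SLC16A3, 0 passed in limma on the chosen probe set and 1, SLC16A1, had an unadjusted p under 0.05. LDHA, the subunit of lactate dehydrogenase that favours lactate formation, had 14.07, 14.06, 14.02 and 14.07 in knockdown and 14.15, 14.16, 14.19 and 14.26 in control. The groups did not overlap, but the difference of -0.13 ± 0.06 (SE) did not pass (adjusted p = 0.183). It passed when the variance was modelled on the mean level (adjusted p = 0.0264). LDHB, the other subunit, averaged 14.12 ± 0.01 in knockdown and 14.13 ± 0.03 in control (SD, n = 4 each).

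SLC16A1 encodes MCT1, which carries lactate and pyruvate across the plasma membrane. Its chosen probe set had 10.95, 10.94, 10.09 and 10.64 in knockdown and 11.18, 10.79, 11.37 and 11.99 in control, with overlap and a difference of -0.68 ± 0.25 (SE; adjusted p = 0.0845). All 4 other SLC16A1 probe sets were lower as well, and 3 of them passed, with differences of -0.47, -0.41 and -1.76 (adjusted p = 0.0113, 0.0389 and 0.00726 over all probe sets). Averaged over all 5 SLC16A1 probe sets, the difference was -0.72 (adjusted p = 0.00739). SLC16A3, the lactate exporter MCT4, differed by -0.11 and missed the threshold.

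**Figure D3:**
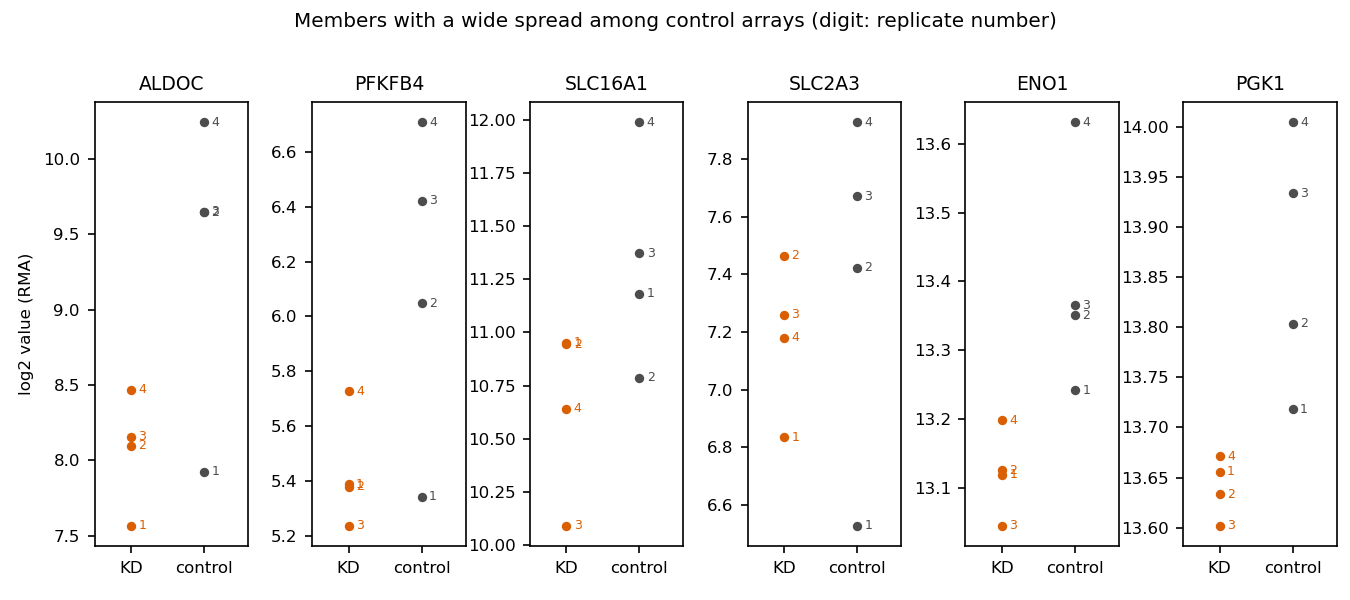
Log2 values (y axis, a separate scale for each panel) on the knockdown (KD) and control arrays for 6 genes chosen after their values were seen for their spread among controls; digits give the replicate number. In ALDOC, PFKFB4 and SLC2A3 control replicate 1 lies within or below the knockdown arrays, while ENO1 and PGK1 do not overlap.

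The pyruvate gate is used here for subunits of the pyruvate dehydrogenase complex, its kinases and pyruvate carboxylase. There 4 of 7 genes were called, 1 risen and 3 fallen, beside 20.0% of all genes and 31.1% of those with a mean of at least 6. The 3 falls include PDK3, whose direction differed between probe sets. PDK1, a kinase that inactivates pyruvate dehydrogenase and a known hypoxia target, had 9.50, 9.68, 9.45 and 9.67 in knockdown and 9.94, 10.17, 10.44 and 10.67 in control. It fell by 0.73 ± 0.14 (SE; adjusted p = 0.00582), to 60.3% of the control level, with no overlap. On its other probe set the difference was -0.56, short of the threshold over all probe sets. PDK2, the most widely expressed kinase of the family, went the other way, with 7.17, 7.08, 7.29 and 7.08 in knockdown and 6.52, 6.49, 6.48 and 6.66 in control. PDK2 rose by 0.62 ± 0.08 (adjusted p = 0.000835), and its other probe set rose by 0.26 (adjusted p = 0.0462 over all probe sets). The intervals of PDK1 (-1.04 to -0.41) and PDK2 (0.45 to 0.79) lie on opposite sides of 0. With the 18S covariate the differences were -0.84 for PDK1 and 0.52 for PDK2.

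For PDK3 the probe sets disagreed. The chosen one had 9.59, 9.69, 9.30 and 9.41 in knockdown and 9.82, 10.04, 10.09 and 10.14 in control and fell by 0.53 ± 0.10 (SE; adjusted p = 0.00608). Of the 4 others, 3 rose, by 0.40, 0.38 and 0.27 (adjusted p = 0.00929, 0.0140 and 0.0330 over all probe sets), and the dimmest had a difference of -0.28 that did not pass. The probe set that rose by 0.27 was dim too, with a mean of 5.81 over all arrays. The mean over all PDK3 probe sets had a difference of 0.05. The direction of PDK3 therefore depends on the probe set, and the files do not say which transcript form each one reads.

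PDHA1, the catalytic subunit of pyruvate dehydrogenase that these kinases phosphorylate, had 11.66, 11.71, 11.68 and 11.64 in knockdown and 11.92, 11.89, 11.96 and 11.88 in control. It fell by 0.24 ± 0.06 (SE; adjusted p = 0.0229), with no overlap. Its 2 other probe sets missed the threshold over all probe sets, with differences of -0.20 (adjusted p = 0.0634) and -0.09 (0.631). Its call ended without knockdown replicates 3 (adjusted p = 0.0508) or 4 (0.0661), without control replicate 3 (0.0720), and with the replicate number as a block (0.0684). The other subunits PDHB (-0.04) and DLAT (-0.15) did not pass. PC, pyruvate carboxylase, was dim, with 4.79 ± 0.03 in knockdown and 4.87 ± 0.05 in control (SD, n = 4 each).

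**Figure D4:**
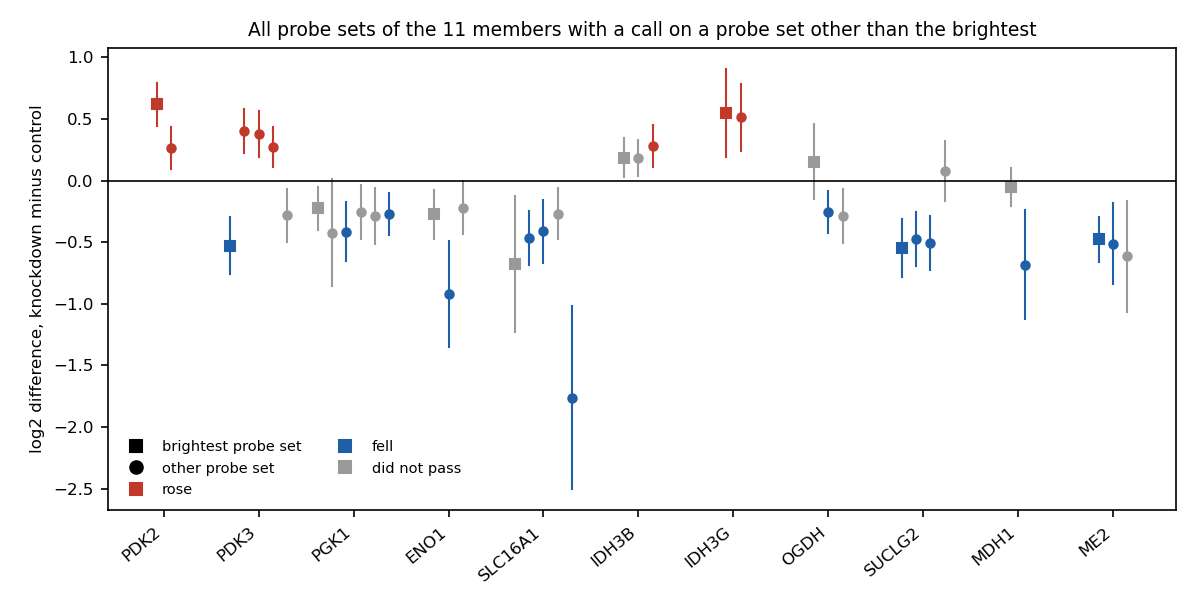
Log2 difference between knockdown and control (y axis) with its 95% interval for every probe set of the 11 genes that had a call on a probe set other than the brightest; squares are the probe sets used for the gene, circles the others, and colours give the call over all probe sets. The circles of PDK3 that rose and its square that fell lie on opposite sides of 0, as do the circles and square of OGDH.

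In the citric acid cycle the clearest falls were in the paired subunits of the GTP-forming succinyl-CoA ligase. SUCLG1, the shared alpha subunit, had 11.19, 11.07, 11.08 and 11.04 in knockdown and 12.08, 12.05, 11.95 and 11.79 in control. It fell by 0.88 ± 0.08 (SE; adjusted p = 0.000254), to 54.5% of the control level, and the call held in each fit that left out an array. SUCLG2, the GTP-specific beta subunit, had 10.63, 10.83, 10.50 and 10.61 in knockdown and 10.93, 11.15, 11.34 and 11.33 in control and fell by 0.55 ± 0.11 (adjusted p = 0.00593). Of its 3 other probe sets 2 fell, by 0.48 and 0.51, and the dim remaining one did not pass. SUCLA2, the beta subunit of the ATP-forming ligase and not on the list, averaged 11.35 ± 0.07 in knockdown and 11.34 ± 0.05 in control (SD, n = 4 each) and did not pass (adjusted p = 0.970).

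The NAD-dependent isocitrate dehydrogenase, a controlled step of the cycle, also had subunits that differed in direction. IDH3A, its catalytic subunit, had 9.56, 9.57, 9.23 and 9.41 in knockdown and 10.01, 9.65, 9.77 and 10.12 in control and fell by 0.45 ± 0.12 (SE; adjusted p = 0.0236). IDH3G, a regulatory subunit, had 9.86, 10.01, 10.47 and 10.41 in knockdown and 9.34, 9.98, 9.61 and 9.63 in control. It rose by 0.55 ± 0.16 (adjusted p = 0.0368) with overlap between groups, and its other probe set rose by 0.51 (adjusted p = 0.0208 over all probe sets). IDH3B, the remaining subunit, was higher on all knockdown arrays, at 11.17 ± 0.08 against 10.98 ± 0.03 in control (SD, n = 4 each), but did not pass (adjusted p = 0.0878); another of its probe sets rose by 0.28 (adjusted p = 0.0382). The other IDH3A probe sets differed by -0.29 and 0.0039, both short of the threshold, and with the mean of all its probe sets the difference of IDH3A was -0.24 and the call ended (adjusted p = 0.0750). The call of IDH3A also ended without knockdown replicates 3 or 4 or control replicates 1 or 4 (adjusted p from 0.0507 to 0.0678). That of IDH3G ended without knockdown replicates 3 or 4 or control replicates 1, 3 or 4 (from 0.0628 to 0.107).

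The other 8 genes of the cycle did not pass, and 2 of them had a differing second reading. CS, citrate synthase, averaged 11.90 ± 0.11 in knockdown and 11.87 ± 0.12 in control (SD, n = 4 each). FH, fumarase, averaged 11.89 ± 0.03 in knockdown and 11.87 ± 0.02 in control, with an interval of -0.11 to 0.16. MDH2, the mitochondrial malate dehydrogenase, had an interval of -0.20 to 0.10, and MDH1, its cytosolic counterpart, one of the same bounds. IDH2, the mitochondrial NADP-dependent form, averaged 8.72 ± 0.12 in knockdown and 8.67 ± 0.22 in control (SD, n = 4 each). Neither it nor IDH1 (0.06), its cytosolic counterpart, nor ACO1 (-0.06), the cytosolic aconitase that doubles as an iron sensor, passed. OGDH, a subunit of the oxoglutarate dehydrogenase complex, differed by 0.15 and missed the threshold, while a second OGDH probe set differed by -0.26 and passed (adjusted p = 0.0488). The remaining OGDH probe set differed by -0.29, with no overlap between groups, and did not pass over all probe sets (adjusted p = 0.0797). A dim probe set of MDH1 fell by 0.68 (adjusted p = 0.0472).

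Malic enzymes return malate to pyruvate. ME2, the mitochondrial NAD-dependent form, had 11.31, 11.27, 11.09 and 11.11 in knockdown and 11.61, 11.57, 11.73 and 11.77 in control. It fell by 0.48 ± 0.08 (SE; adjusted p = 0.00319) without overlap, and its 2 other probe sets had differences of -0.51, which passed, and -0.62, which did not. ME1, the cytosolic form, was dim and did not pass (difference -0.16).

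The difference between glycolysis and the cycle as groups was not tested. Of the 23 glycolysis genes, from glucose transporters to lactate carriers, 2 rose, 4 fell and 17 did not pass. That is 26.1% called, with a median difference of -0.11. The 13 cycle genes had 1 rise, 3 falls and 9 that did not pass (30.8% called), with a median of 0.02. Over all genes the share called was 20.0% and the median 0.03. Among genes with a mean of at least 6 the share was 31.1% and the median 0.07. The mean of the glycolysis genes minus that of the cycle genes was -0.29, -0.24, -0.29 and -0.22 on knockdown arrays and -0.31, -0.17, -0.12 and -0.10 on control arrays. Control replicate 1 lay below all knockdown arrays in this measure and the other 3 controls above them. Without control replicate 1 the medians were -0.15 for glycolysis, with 3 rises and 6 falls, and -0.02 for the cycle, with 0 rises and 2 falls in limma. In that fit 17.9% of all genes were called. The order of the medians turned when a gene was taken as the mean of its probe sets (-0.01 for glycolysis and -0.05 for the cycle). With the 18S covariate they were -0.24 and -0.19, beside 0.01 over all genes.

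Of 35 other genes of these pathways, 5 rose, 2 fell and 28 did not pass, which is 20.0% called, as over all genes. The risen genes included PDPR (0.46), the regulatory subunit of pyruvate dehydrogenase phosphatase, and the mitochondrial pyruvate carrier subunit MPC2, listed under its older symbol BRP44 (0.38). DLST (0.26), the succinyltransferase of the oxoglutarate dehydrogenase complex, SDHC (0.33), a membrane subunit of succinate dehydrogenase, and G6PC3 (0.36), a glucose phosphatase, rose as well. PCK2, the mitochondrial phosphoenolpyruvate carboxykinase, fell by 0.81 ± 0.21 (SE; adjusted p = 0.0233), and the sugar transporter SLC2A6 fell by 0.58. Of 7 genes of the pentose phosphate pathway 1 rose, PGLS, the lactonase (0.47, adjusted p = 0.00948), and 6 did not pass.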

How the data were processed

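RNA of 4 ZMIZ1 knockdown and 4 control replicates of CEM was measured on 8 arrays from 250 ng total RNA, per the labels' protocols. The authors deposited log2 values made with RMA for 54675 probe sets, per the submitters' processing notes and the file headers; its version is nowhere given in the sources used here. RMA normalizes by quantiles, which can hide a shift of all genes, and gives no counts, so the number of arrays limits the precision. Workbook and value table agreed to within 5e-09.

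Differences were fitted with limma 3.58.1 in R 4.3.3 (lmFit, eBayes, two-sided) on 54613 probe sets, after the 62 manufacturer's control probe sets were left out. Each of 20307 genes with 1 symbol was represented by its brightest probe set (mean of 8 arrays), and p values were adjusted over these genes (Benjamini-Hochberg, threshold 0.05). Calls on other probe sets were adjusted over all probe sets. The fit was tested on simulated data, where it recovered 28% of 50 changes of 1.25-fold, 72% of 50 of 1.5-fold and 94% of 50 of 2-fold. It made 5 false calls there. A gene that did not pass may therefore still have a small change. Named genes were all members and ZMIZ1, with array values for members that passed and values for chosen enzymes; other pathway genes were to be given by counts. Those of them named (SUCLA2 and the genes that passed) and the markers CD3E and CD1A were named after their values were seen. Members, lists and tests were chosen with earlier results of these data known. Alternatives covered scaling, dim and multi-target probe sets, probe set choice, variance models, an unmoderated equal-variance test, the 18S covariate, knockdown replicates 1 and 2 only, and each array left out; a spread estimated on 1 probe set per gene was added after seeing the data. Columns of the deposited comparison were not used here. Symbols are those of the deposited annotation.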

Additional observations from a re-analysis of the deposited data

Results flagged for a closer look

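In 3 of 90 groups of 4 arrays (45 genes in both conditions), 1 array stood apart from the other 3 by Dixon's criterion, which chance meets in about 1 of 20 groups. HK2 was 9.67 on knockdown replicate 4, against 9.55 to 9.56 on the other knockdown arrays, and this value still lay below every control array. ACO1 was 10.19 on control replicate 4, against 9.83 to 9.88 on the other controls. MDH2 was 13.22 on control replicate 1, against 13.08 to 13.09 on the other controls.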

How the results depend on the processing

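ZMIZ1 passed in all 20 alternatives. Of the 15 called genes, 9 (HK2, PFKL, PFKM, PDK1, PDK2, PDK3, SUCLG1, SUCLG2 and ME2) passed in all 8 fits without 1 array. The members that rose numbered from 2 to 5 and the members that fell from 7 to 12 over these 8 fits, with 2 risen without knockdown replicate 4 or control replicate 3 and 7 fallen without knockdown replicates 3 or 4. Without _s_at and _x_at probe sets the members that rose numbered 2, where 9 of the 15 genes kept a probe set and 7 kept their call. With knockdown replicates 1 and 2 only, 1 of the members rose and 3 fell (HK2, PFKM, PDK2 and SUCLG1); this fit has fewer samples. With the 18S covariate 0 of the members that rose and 0 of the members that fell passed in limma, and the median difference of the citric acid cycle members was -0.19. Over all genes 20.0% were called, against 0.458% with the 18S covariate, 6.54% with knockdown replicates 1 and 2 only and 12.7% without control replicate 3. Same-numbered arrays did not deviate together across all genes (r from -0.19 to 0.098). The mean of the glycolysis genes, however, rose from replicate 1 to replicate 4 in both groups. It was 10.40, 10.48, 10.50 and 10.57 in knockdown and 10.49, 10.64, 10.68 and 10.79 in control. Whether same-numbered arrays share more than a number in these genes was not tested. With the replicate number as a block, 4 rose and 10 fell, and the calls of PFKFB3 (adjusted p = 0.0525) and PDHA1 (0.0684) ended while PFKFB4 passed (0.0346); the block changed no other call among the members. With array weights 6 rose and 16 fell. With the unmoderated equal-variance test 3 rose and 9 fell, and 10 of the 15 calls held; PFKP, PFKFB3, ALDOC, IDH3A and IDH3G lost theirs, and LDHA and IDH3B passed.

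Directions turned as follows, and the cause was not tested. With the 18S covariate the differences were GPI -0.44, TPI1 -0.14, PGAM1 0.023, ENO2 -0.25, PDHB 0.042, DLAT 0.015, CS -0.21, IDH2 -0.25, IDH3G -0.0027 and OGDH -0.19. With knockdown replicates 1 and 2 only they were GPI -0.17, TPI1 -0.025, PGAM1 0.0046, CS -0.058, IDH2 -0.045 and OGDH -0.052. With the mean of all probe sets they were PFKFB2 0.041, PDK3 0.049, IDH1 -0.047, OGDH -0.13 and FH -0.012, and without _s_at and _x_at probe sets TPI1 -0.054 and IDH3A 0.0039. Centred arrays gave PGAM1 0.019 and LDHB 0.017, and further quantile normalization gave CS -0.0032 and FH -0.019. In the 8 fits without 1 array the ranges were GPI -0.031 to 0.14, PGAM1 -0.026 to 0.0014, IDH1 -0.00069 to 0.10, IDH2 -0.030 to 0.14, LDHB -0.027 to 0.00037, HK1 -0.17 to 0.046 and ACO1 -0.092 to 0.027. Among these genes only IDH3A, IDH3G and PDK3 had been called.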

Other observations

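Several glycolytic transcripts differed among the control arrays, a description made after their values were seen. Control replicate 1 was the lowest and control replicate 4 the highest control array in 10 of the 23 glycolysis genes (43.5%), in 1 of the 13 cycle genes (7.69%) and in 12.5% of all genes. The genes include SLC2A3 (6.53 and 7.93), PFKFB4 (5.34 and 6.71) and ALDOC (7.92 and 10.24), each with control replicate 1 before control replicate 4. PDK1, at the pyruvate gate, had the same order (9.94 and 10.67). On knockdown arrays, replicate 1 was the lowest and replicate 4 the highest for ALDOC (7.57 and 8.47) and for the glycolysis mean (10.40 and 10.57). SLC2A3 was instead highest on knockdown replicate 2 (7.46), and PFKFB4 lowest on knockdown replicate 3 (5.24). The 18S signal was 13.37 on control replicate 1 and 12.70 on control replicate 4; its part in these values was not tested. The spread among controls was larger than among knockdown arrays in 30 of the 45 genes (66.7%) and in 51.8% of all genes.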
